A study of Mus musculus with 16 samples.

Results

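CT26 is a colon carcinoma line from BALB/c mice. The comparison here is between CT26 cells that carried a short hairpin RNA against Sep15 (shSep15) and CT26 cells that carried a Sep15 hairpin together with a hairpin against TR1 (shTR1/shSep15). It was chosen by the labels alone and holds 8 of the 16 arrays of the series, 4 for each line. Both lines were stably transfected with the pU6-m3 vector, and both are low in Sep15, so the comparison asks what goes with a TR1 hairpin where Sep15 is already low. The other 8 arrays, 4 of empty-vector cells (control) and 4 labelled shTR1, entered the fit and give reference levels. Each array measured mRNA from a different mRNA sample on an Affymetrix array of the mouse genome. The clone behind each array is not stated, nor whether the samples were separate cultures, so p-values rest on the spread between mRNA samples within lines. In the fit of all 16 arrays that spread is pooled over the lines, control and shTR1 included. Since shSep15 and shTR1/shSep15 are separately derived cell lines, effects of the TR1 hairpin and other differences between the lines cannot be told apart.

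Sep15 is a selenoprotein of the endoplasmic reticulum that binds UDP-glucose:glycoprotein glucosyltransferase, the enzyme that checks the folding of glycoproteins. TR1 is the cytosolic thioredoxin reductase, a selenoprotein that keeps thioredoxin reduced with electrons from NADPH. The genes are Selenof for Sep15 and Txnrd1 for TR1. Both proteins contain selenocysteine, which is inserted at a UGA codon. The hairpin targets given in the labels are shown because they define the lines, in lower case and as DNA from 5′ to 3′. Both lines carry a hairpin against Sep15, and a hairpin against TR1 separates them. The targets were read from a label of shTR1/shSep15 cells. Whether the shSep15 arrays carried the same Sep15 sequence was not checked.
Sep15 target: acagaagagttccatttaa
TR1 target: atcgctctgacaagcttattag
The Sep15 target has 19 bases with 31.6% G and C, and the TR1 target has 22 bases with 40.9% G and C.

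The deposited values are log2 signals. The median over all probe sets ran from 4.45 to 4.57 in the 8 arrays. The upper quartile was lowest in replicate 2 of each line, at 6.45 in shSep15 and 6.35 in shTR1/shSep15, against 6.58 to 6.73 in the other shSep15 arrays and 6.61 to 6.63 in the other shTR1/shSep15 arrays. Arrays of 1 line correlated with each other at r of 0.98 to 0.996 for shSep15 and 0.982 to 0.997 for shTR1/shSep15. The highest correlation across the lines was 0.983. Of the reference arrays, control replicate 2 stood apart in immediate-early genes, with a list mean of 10.95 against 7.94 to 8.22 in the other controls. Replicates 2 and 4 of the arrays labelled shTR1 had Txnrd1 signals of 10.57 and 9.71, neither of them below the control range of 9.45 to 10.39, while replicates 1 and 3 had 7.84 and 7.89. The counts and calls were also computed without these arrays. Of 6 mesenchymal markers, Vim (12.68 in shSep15 and 13.08 in shTR1/shSep15) and Col1a2 (11.89 and 11.98) had high signals. Col1a1 (5.9 and 5.97), Pdgfra (5.55 and 4.78), Pdgfrb (4.34 and 6.69) and Fap (4.6 and 3.27) were far lower. The epithelial markers Cdh1 (2.45 and 2.56) and Krt8 (4.63 and 4.68) were low, although the labels give a colon carcinoma. The other epithelial markers were Krt19 (4.22 and 4.32), Krt18 (3.26 and 6.45) and Epcam (5.92 and 6.04). Of 5 epithelial markers, 1 lay above the mean of all probe sets, against 5 of the 6 mesenchymal markers.

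Txnrd1 was lower in shTR1/shSep15 cells, by 4.98-fold, and Selenof was low in both lines. Txnrd1 read 9.86, 10.62, 9.54 and 9.66 in shSep15 replicates 1 to 4, and 7.60, 7.18, 7.73 and 7.91 in shTR1/shSep15 replicates 1 to 4. The lines did not overlap, and the shSep15 arrays lay at the control level of 9.96 ± 0.40 (SD, n = 4). The log2 difference, here and below coded as shTR1/shSep15 minus shSep15, was -2.32 (standard error 0.49, adjusted p = 0.0208 from limma). The exact two-sided permutation test of the 8 values gave p = 0.0286, the lowest value possible with 4 and 4 arrays. The call ended with shSep15 replicate 2 or 4 or with shTR1/shSep15 replicate 1, 2 or 3 left out (adjusted p = 0.0508 to 0.0756). A fit of the 8 arrays alone gave an adjusted p of 0.000718. The other probe sets of Txnrd1 had differences of -0.74 (adjusted p = 0.192) and -0.28 (adjusted p = 0.569).

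Selenof read 8.02, 8.06, 8.29 and 8.15 in shSep15 cells and 7.86, 7.34, 7.77 and 7.66 in shTR1/shSep15 cells. Every array of either line was far below the control mean of 11.33 ± 0.37 (SD, n = 4), and every shTR1/shSep15 array lay below every shSep15 array. The difference between the lines was -0.47 (standard error 0.19), which did not pass the threshold over all probe sets (adjusted p = 0.279). It passed in the fit of the 8 arrays alone (adjusted p = 0.0494), and the exact permutation test of its values gave p = 0.0286. The second Selenof probe set was near 3.5 in both lines and differed by -0.01.

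**Figure D1:**
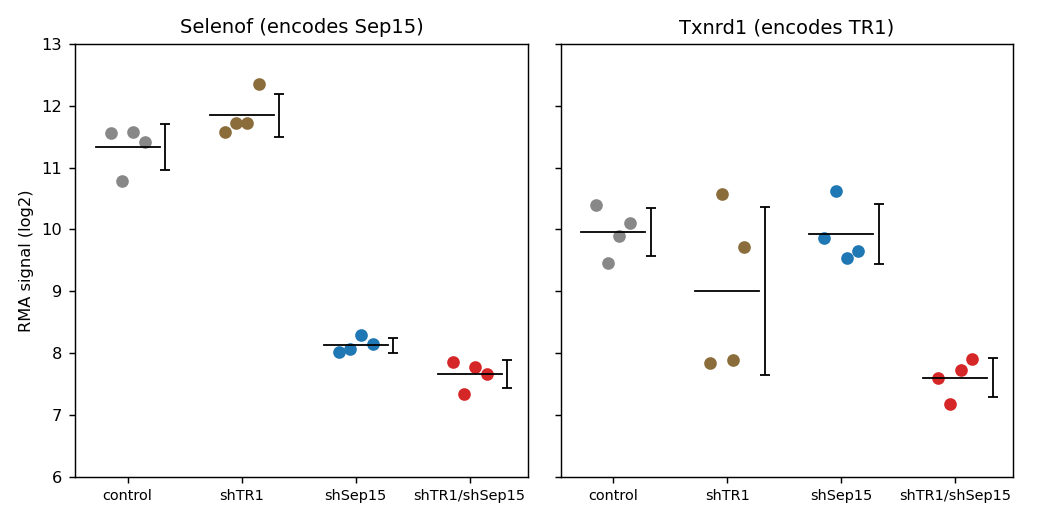
Log2 RMA signal of Selenof (left) and Txnrd1 (right) in each of the 16 arrays. Points are arrays, horizontal lines the means of 4 arrays and bars the SD. Both lines with the Sep15 hairpin are low in Selenof, and shTR1/shSep15 has the lowest mean of the 4 lines in Txnrd1, while the arrays labelled shTR1 fall into a low and a high pair.

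Over the whole array, 1196 of 45037 probe sets differed between the lines (2.66%), with 486 higher (1.08%) and 710 lower (1.58%) in shTR1/shSep15 cells. At an unadjusted p under 0.05 there were 6000 (13.3%). With 1 probe set for each gene, 637 of 18193 genes passed (3.5%), 291 of them higher (1.6%) and 346 lower (1.9%). The difference was at least 2-fold for 372 of these genes, 175 higher and 197 lower. The 8 arrays did not overlap between the lines in 3232 genes (17.8%), with shTR1/shSep15 above in 1728 (9.5%) and below in 1504 (8.27%). The median difference over all genes was 0.03. The count depended on which arrays entered the fit. It was 3747 probe sets with the 8 arrays alone, 2239 without control replicate 2, and 516 without replicate 2 of both lines. The gene lists described below were chosen with earlier results of these data known. Their shares, set beside those of all genes, are therefore descriptive and not independent evidence.

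Genes that interferons induce were lower in shTR1/shSep15 than in shSep15 cells. Interferon-stimulated genes are switched on when interferon receptors activate Stat proteins, which enter the nucleus with Irf9 and bind short elements in promoters. Of 53 such genes with a probe set, 16 fell (30.2%, against 1.9% of all genes) and none rose, and the median difference was -2.04. Ifitm1, an interferon-induced gene that is not in this list, rose by 5.54 (adjusted p = 0.00144). Of 11 interferon-inducible GTPases, 6 fell (54.5%) and none rose, with a median of -3.66. These GTPases, guanylate-binding proteins and immunity-related GTPases, act on the vacuoles of intracellular pathogens. In 31 of the 53 and 10 of the 11 genes, every shTR1/shSep15 array lay below every shSep15 array, against 8.27% of all genes. The study had named several of these genes from the same arrays, so that their direction is not independent evidence.

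Usp18, a protease that removes the ubiquitin-like Isg15 from proteins, had the lowest difference of all named genes. It read 7.84, 11.39, 10.90 and 11.26 in shSep15 replicates 1 to 4 and 3.76, 3.68, 3.58 and 3.54 in shTR1/shSep15. The lines lay far apart, shSep15 replicate 1 was lower than its fellows, and the shTR1/shSep15 arrays were below the control mean of 4.32 ± 0.67 (SD, n = 4). Usp18 was 105-fold lower in shTR1/shSep15 cells (log2 difference -6.71, standard error 1.22, adjusted p = 0.00823 from limma). The shTR1/shSep15 arrays lay near the lower quartile of all probe sets (3.30 to 3.44), so that this fold is approximate. Xaf1, which binds the caspase inhibitor Xiap, read 8.69, 10.96, 10.84 and 10.75 against 5.58, 4.81, 5.63 and 5.37, a difference of -4.96 (adjusted p = 0.00946). Phf11d read 8.68, 10.64, 10.96 and 11 against 5.74, 5.35, 5.99 and 5.90, a difference of -4.58 (adjusted p = 0.0144). In both genes shSep15 replicate 1 was again the lowest of its line and still above every shTR1/shSep15 array.

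Trim30a, a member of the tripartite-motif family, was 17.9-fold lower (-4.16, adjusted p = 0.00401), with 7.46, 9.49, 9.44 and 9.35 in shSep15 and 4.71, 4.43, 4.96 and 5.0 in shTR1/shSep15 arrays. Parp14, an ADP-ribosyltransferase, read 5.13, 9.07, 8.08 and 8.07 against 4.12, 3.85, 3.66 and 4.03 (-3.67, adjusted p = 0.0287). Nmi, which binds Stat proteins, read 7.83, 8.80, 8.96 and 8.91 against 6.67, 5.76, 6.65 and 6.92 (-2.13, adjusted p = 0.00466). The spread within shSep15 was thus much wider for Parp14 than for Nmi, and the low array was replicate 1 in each.

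Several GTPases spread widely within shSep15. Gbp2b read 7.31, 11.27, 9.47 and 9.52 in shSep15 and 4.13, 4.08, 4.35 and 4.13 in shTR1/shSep15 arrays, 37.3-fold lower (-5.22, standard error 1.21, adjusted p = 0.0319). Gbp7 read 6.29, 9.90, 9.75 and 9.86 against 3.77, 3.77, 3.84 and 3.67 (-5.19, adjusted p = 0.0294). Gbp2 read 6.41, 10.39, 9.39 and 9.48 against 4.27, 3.91, 4.05 and 3.96 (-4.87, adjusted p = 0.0287). These 3 guanylate-binding proteins showed 1 pattern, with shSep15 replicate 1 lowest, replicate 2 highest and all shTR1/shSep15 arrays near the bottom of the scale. Whether probe sets of such closely related genes bind each other's RNA was not tested. Irgm2, an immunity-related GTPase, read 6.29, 9.12, 8.87 and 8.82 against 3.71, 4.13, 3.64 and 3.91, 21.6-fold lower (-4.43, standard error 0.80, adjusted p = 0.00809). Igtp, of the same family, read 6.88, 10.56, 9.70 and 9.85 against 5.68, 5.28, 5.69 and 5.69 (-3.66, adjusted p = 0.0319). Irgm2 passed with any single array left out.

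**Figure D2:**
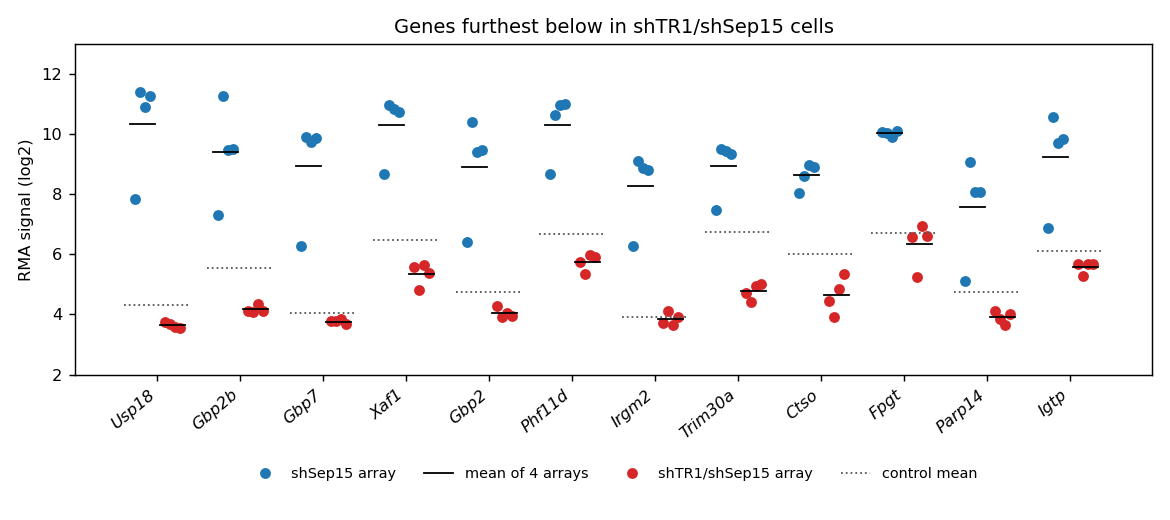
Log2 RMA signal of the 12 genes with the most negative difference among those past the threshold, in the 4 shSep15 arrays (blue) and the 4 shTR1/shSep15 arrays (red). Solid lines are means of 4 arrays and dotted lines the control mean. Genes were eligible only where the lines do not overlap. In all but Fpgt the lowest blue point is replicate 1.

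Promoter windows of 5 GTPases are shown because they hold letters that interferon-activated transcription factors are known to bind. The letters searched were GAAA, any 2 bases and GAAA again, on both strands, from 250 bases before to 50 after each gene start. Each window of 50 bases is given 5′ to 3′ on the strand of the gene, with the match in capitals.
Irgm2, chr11:58214893-58214942, plus strand: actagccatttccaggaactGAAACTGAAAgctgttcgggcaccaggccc
Igtp, chr11:58199502-58199551, plus strand: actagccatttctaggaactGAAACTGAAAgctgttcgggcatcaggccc
Gbp2, chr3:142620584-142620633, plus strand: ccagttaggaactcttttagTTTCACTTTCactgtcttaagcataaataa
Gbp2b, chr3:142594690-142594739, plus strand: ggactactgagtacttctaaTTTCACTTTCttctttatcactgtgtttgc
Gbp7, chr3:142530263-142530312, plus strand: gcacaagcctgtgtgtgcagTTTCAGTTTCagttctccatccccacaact
Sequences and coordinates are those of RefSeq on GRCm38.p6, and each match lies before the gene start. The match is on the given strand in Irgm2 and Igtp and on the other strand in Gbp2, Gbp2b and Gbp7. The motif was present in 7 of 8 interferon-inducible GTPases with a promoter entry (87.5%) and in 17 of 39 interferon-stimulated genes (43.6%). It was present in 27 of 290 genes lower in shTR1/shSep15 cells (9.31%), in 8 of 221 higher genes (3.62%) and in 524 of all 14452 measured genes with an entry (3.63%). A match describes letters and shows no binding.

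The transcription factors of the pathway moved with it in part. Irf9, the DNA-binding partner of Stat proteins, read 6.57, 8.35, 7.61 and 7.86 in shSep15 and 5.02, 5.15, 5.23 and 5.25 in shTR1/shSep15 arrays, a fall of 5.41-fold (-2.43, adjusted p = 0.0328). Irf7, which drives type I interferon genes, read 6.02, 9.30, 9.87 and 10 against 5.22, 5.53, 4.96 and 4.82. Its lines did not overlap, shSep15 replicate 1 was far below the others, and the difference of -3.66 did not pass (adjusted p = 0.0886). It passed with the 8 arrays alone (adjusted p = 0.0189) and without the 2 doubted shTR1 arrays (adjusted p = 0.0117). Gbp6 was likewise at -2.29 (adjusted p = 0.133, and 0.0267 with the 8 arrays alone). Stat3 fell by 1.02 (adjusted p = 0.0464), but not with the replicate number as a block (adjusted p = 0.0979) or without the 2 doubted shTR1 arrays (adjusted p = 0.0559). Sting1, the adaptor of cytosolic DNA sensing, rose by 1.55 (adjusted p = 0.00617). The interferon gene Ifng itself was at 2.54 to 2.71 in all 8 arrays, near the bottom of the scale (difference 0.06, adjusted p = 0.922). Of 28 interferons, receptors and signalling genes, 1 rose (3.57%, against 1.6% of all genes) and 2 fell (7.14%, against 1.9%).

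Of 17 genes of class I antigen presentation, 2 fell (11.8%, against 1.9% of all genes) and none rose, and the median was -0.63. Tapbp, the chaperone tapasin that loads peptide onto class I molecules, read 8.08, 9.32, 9.81 and 9.88 against 7.35, 7.66, 7.54 and 7.88 (-1.67, adjusted p = 0.0343). H2-D1, a class I heavy chain, fell by 0.75 (adjusted p = 0.0266, and 0.0572 with the replicate number as a block), and that call ended with 6 of the 8 single arrays left out (adjusted p up to 0.0977). Without replicate 2 of both lines, none of the 17 fell.

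Levels of the interferon genes differed among the arrays of each line. The mean of the 53 interferon-stimulated genes was 6.61 in shSep15 replicate 1 and 8.59, 8.28 and 8.35 in replicates 2 to 4. It was 5.96, 5.80, 6.05 and 6.01 in shTR1/shSep15 cells. The GTPase mean was 5.96, 8.93, 8.16 and 8.34 in shSep15 and 4.43, 4.13, 4.50 and 4.46 in shTR1/shSep15 cells. By this measure shSep15 replicate 1 stood between the lines, and its mean of the interferon-stimulated genes lay within the control range of 6.04 to 7.34. The arrays labelled shTR1 had means of 6.45, 7.63, 6.26 and 8.69 for interferon-stimulated genes, and 4.54, 6.03, 4.96 and 8.91 for GTPases. Usp18 read 4.68, 10.47, 6.40 and 11.73 in them. High levels were thus not confined to shSep15 arrays. Without shSep15 replicate 1, 24 interferon-stimulated genes and 9 GTPases fell, against 1.42% of all genes. Without shTR1/shSep15 replicate 2, these counts were 7 and 1 against 0.863% of all genes, and without replicate 2 of both lines 3 and 0 against 0.857%, with medians of -1.57 and -3.12. With the 8 arrays alone, 31 and 9 fell against 4.9% of all genes. The calls of Gbp2b, Gbp7, Gbp2, Igtp, Parp14, Irf9, Stat3 and Tapbp each ended with any single array other than shSep15 replicate 1 left out (adjusted p up to 0.152), and that of Phf11d with shSep15 replicate 3 or 4 or shTR1/shSep15 replicate 2 (adjusted p up to 0.0534). Usp18, Xaf1, Trim30a, Irgm2 and Nmi passed with any single array left out, although Usp18, Xaf1 and Irgm2 did not without both replicates 2 (adjusted p = 0.0679, 0.0847 and 0.0601).

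Among the 12 genes furthest below, Ctso and Fpgt belong to no interferon list. Ctso, the lysosomal protease cathepsin O, read 8.05, 8.62, 8.98 and 8.90 in shSep15 and 4.44, 3.93, 4.86 and 5.35 in shTR1/shSep15 arrays, 15.9-fold lower (-3.99, standard error 0.46, adjusted p = 0.000432). Fpgt, an enzyme that makes GDP-fucose, read 10.08, 10.03, 9.92 and 10.10 against 6.59, 5.25, 6.95 and 6.60 (-3.69, adjusted p = 0.000912). The shSep15 arrays of Fpgt were tight and included replicate 1 at the same level as the others. Control means were 6.02 for Ctso and 6.72 for Fpgt, between or near the levels of the lines. Both genes lie on chromosome 3.

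The genes furthest above in shTR1/shSep15 cells were mostly expressed in control cells and low in shSep15 cells. Afp, the fetal serum protein alpha-fetoprotein, read 3.67, 2.71, 3.59 and 3.64 in shSep15 and 10.07, 10.25, 10.12 and 10.28 in shTR1/shSep15 arrays. It was 110-fold higher (6.78, standard error 0.67, adjusted p = 0.000157 from limma), and the control mean was 9.51 ± 0.17 (SD, n = 4). The shSep15 arrays lay near or below the lower quartile of all probe sets (3.27 to 3.41), so that the fold is approximate. Of the other 4 Afp probe sets, 2 rose by 4.65 and 4.66 and 2 did not pass, and the mean over all 5 was 3.36. The uncharacterised gene 2210016F16Rik read 4.13, 4.26, 3.81 and 3.83 against 9.53, 9.64, 9.52 and 9.45 (5.53, adjusted p = 1.28e-06), with a control mean of 8.99. Igfbp4, a secreted protein that binds insulin-like growth factors, read 6.61, 5.30, 5.89 and 5.78 against 10.26, 10.13, 10.40 and 10.30 (4.38, adjusted p = 0.000286), with a control mean of 9.26. In these genes the shTR1/shSep15 arrays lay close together and near or above the control level.

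Arhgef5, a guanine nucleotide exchange factor, had the lowest p of the named genes. It read 4.64, 4.92, 4.53 and 4.53 in shSep15 and 9.37, 9.43, 9.57 and 9.84 in shTR1/shSep15 arrays, a 29.9-fold rise (4.90, standard error 0.17, adjusted p = 1.3e-09). Control cells were at 9.22 ± 0.38 (SD, n = 4), and the arrays labelled shTR1 at 4.52 ± 0.17 (SD, n = 4). Arhgef5 was thus low in each line with a single hairpin and high in the line with both and in control cells. Ifitm1, an interferon-induced membrane protein, went against the other interferon genes. It read 4.56, 4.90, 5.86 and 5.83 against 10.74, 10.77, 10.87 and 10.93, 46.6-fold higher (5.54, standard error 0.75, adjusted p = 0.00144), and the control mean was 8.59.

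A few intermediate filament genes rose. Nefl, the light neurofilament chain, read 3.20, 3.18, 3.77 and 3.46 against 7.64, 7.07, 7.81 and 7.84 (4.19, adjusted p = 0.0139). Nefm, the medium chain, read 5.02, 6.50, 6.45 and 6.29 against 10.09, 10, 10.16 and 10.33 (4.08, adjusted p = 0.00193). Neurofilament chains usually mark neurons, and both were near the control level in shTR1/shSep15 cells (control means 8.10 and 9.70). Krt20, a keratin of differentiated gut epithelium, read 5.22, 4.79, 4.76 and 5.32 against 9.06, 8.38, 8.88 and 7.95 (3.54, adjusted p = 0.000788). Krt18, a keratin of simple epithelia, read 3.36, 3.50, 3.30 and 2.89 against 6.53, 6.25, 6.43 and 6.58 (3.19, adjusted p = 0.0131). Of 27 keratin and epithelial junction genes these 2 rose (7.41%, against 1.6% of all genes) and none fell, with a median of 0.09. Krt8, the usual partner of Krt18, was low in both lines.

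Secreted and matrix genes were also among the highest. Tnc, the matrix protein tenascin C, read 3.52, 3.56, 3.38 and 3.09 against 6.94, 6.62, 6.94 and 7.46 (3.61, standard error 0.56, adjusted p = 0.00312), above its control mean of 3.83 ± 0.48 (SD, n = 4). A second Tnc probe set differed by 0.40 (adjusted p = 0.0894). Thbs2, thrombospondin 2, rose by 2.64 (adjusted p = 0.0158, and 0.0537 without shTR1/shSep15 replicate 4), to between 7.71 and 8.37 against a control mean of 5.98. Grem1, a secreted antagonist of bone morphogenetic proteins, read 5.62, 5.91, 5.29 and 5.19 against 9.20, 8.83, 8.87 and 8.90 (3.45, adjusted p = 0.0111). Tnc and Thbs2 stood above the control level in shTR1/shSep15 cells, unlike Afp or Nefl, which were near it. Against control, neither Tnc nor Thbs2 passed (adjusted p = 0.0957 and 0.307). The 2 were the only members called among 16 matricellular proteins (12.5% higher, against 1.6% of all genes), and the median of that list was 0.05. That list was chosen with earlier results of these data known. Col3a1, a fibrillar collagen, rose by 2.82 (adjusted p = 0.038, and 0.0668 with the replicate number as a block), and Col6a3 by 0.55 (adjusted p = 0.0261). The other Col3a1 probe set had low signals (2.48 in shSep15 and 2.52 in shTR1/shSep15) and differed by 0.04 (adjusted p = 0.935). The call of Col3a1 ended with any single array left out (adjusted p = 0.0507 to 0.12), and that of Col6a3 with any but shSep15 replicate 3 or shTR1/shSep15 replicate 1 (adjusted p up to 0.0899). Of 28 collagen and fibrillar matrix genes these 2 rose (7.14%, against 1.6% of all genes) and none fell. Timp1, an inhibitor of metalloproteinases, rose by 1.28 (adjusted p = 0.0318, and 0.0546 to 0.0902 with any single array left out). Spint2, an inhibitor of serine proteases, fell by 0.95 (adjusted p = 0.00486), and its other probe set by 2.87 (adjusted p = 2.66e-06). Timp1 and Spint2 were the only 2 called of 26 matrix proteases and inhibitors (3.85% each way, against 1.6% and 1.9% of all genes).

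**Figure D3:**
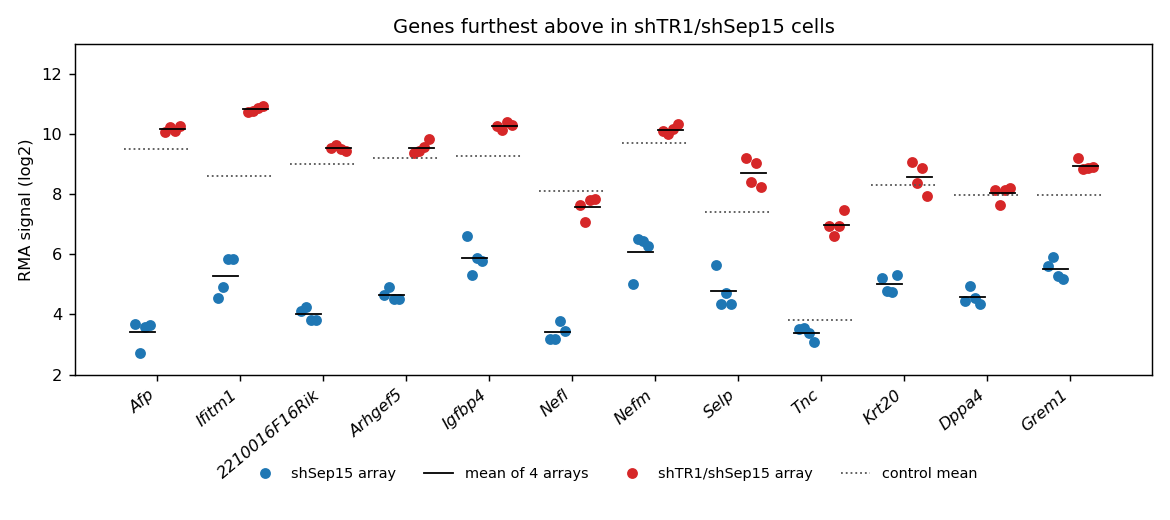
Log2 RMA signal of the 12 genes with the most positive difference among those past the threshold, in the 4 shSep15 arrays (blue) and the 4 shTR1/shSep15 arrays (red). Solid lines are means of 4 arrays and dotted lines the control mean. Genes were eligible only where the lines do not overlap. The red points of Tnc, at 6.62 to 7.46, lie well above its control mean of 3.83.

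Several single genes with roles in adhesion, signalling or early development rose as well. Selp, the adhesion receptor P-selectin, rose by 3.95 (adjusted p = 0.000446), from 4.36 to 5.65 in shSep15 to 8.23 to 9.21 in shTR1/shSep15 arrays. Dppa4, a chromatin protein of pluripotent cells, rose by 3.47 (adjusted p = 0.00946), to 7.65 to 8.21. Sox2, a transcription factor of stem cells, rose by 2.04 (adjusted p = 0.00628), from 5.08 to 7.06 to 7.76 to 8.74. With Afp, these made 3 of 17 oncofetal, pluripotency and germline genes (17.6%, against 1.6% of all genes), with a median of 0.13. The list was chosen with earlier results of these data known, so this share is not independent evidence. Klf2, a zinc-finger transcription factor, rose by 2.61 (adjusted p = 0.00886) and was the only member called among 25 immediate-early and Krüppel-like factors (4.0% higher, against 1.6% of all genes). Its shTR1/shSep15 arrays, at 7.02 to 7.37, lay below the control mean of 9.12. Btc, the EGF receptor ligand betacellulin, rose by 2.44 (adjusted p = 0.00427), from 4.25 to 4.64 to 6.16 to 7.49, with a control mean of 4.41. Ccr1, a receptor of inflammatory chemokines, rose by 2.61 (adjusted p = 0.00103), to 6.16 to 6.95 against a control mean of 4.39 and a mean of 7.56 in the arrays labelled shTR1. A second Ccr1 probe set differed by 0.47 (adjusted p = 0.7). Zeb1 and Twist2, transcription factors of mesenchymal cells, rose by 0.94 (adjusted p = 0.0159) and 1.55 (adjusted p = 0.00671). The other Zeb1 probe sets differed by 0.01, 0.27 and 0.38, and none of them passed. The call of Zeb1 ended without shSep15 replicate 4 or shTR1/shSep15 replicate 1 or 3 (adjusted p = 0.0503 to 0.0554).

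Selenoprotein genes moved in both directions. Of 23 measured, 2 rose and 2 fell (8.7% each way, against 1.6% and 1.9% of all genes), and the median was -0.08. Txnrd1 was 1 of those that fell. The other was Selenop, which carries selenium in plasma, with 4.52, 4.99, 5.86 and 5.86 in shSep15 and 3.31, 3.45, 3.19 and 3.75 in shTR1/shSep15 arrays (-1.88, standard error 0.24, adjusted p = 0.00103). Its shTR1/shSep15 level was that of control (3.34 ± 0.18, SD, n = 4). Sephs2, which makes the selenium donor for selenocysteine synthesis, read 7.55, 7.31, 8.09 and 8.02 against 8.92, 9.32, 8.84 and 8.99 (1.27, adjusted p = 0.0239, and 0.0508 with the replicate number as a block). Selenoo, a mitochondrial selenoprotein, rose by 0.94 (adjusted p = 0.0437, and 0.0733 with the block). The calls of Sephs2 and Selenoo ended with 6 and 7 of the 8 single arrays left out (adjusted p up to 0.0867 and 0.123). Gpx1, the most abundant glutathione peroxidase of most tissues, was at 11.40 to 11.83 in shSep15 and 11.17 to 11.28 in shTR1/shSep15 arrays, a difference of -0.42 (adjusted p = 0.199). Gpx2 (-0.04) and Selenom (0.20) did not pass either.

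Genes under the control of Nrf2, the transcription factor that is activated by oxidants and electrophiles, included 1 that rose and 1 that fell of 28 (3.57% each way, against 1.6% and 1.9% of all genes), with 24 of 28 differences positive and a median of 0.42. Nfe2l2, the gene of Nrf2 itself, did not pass (0.39, adjusted p = 0.432). Me1, malic enzyme, which makes NADPH, rose by 0.74 (adjusted p = 0.0287, and 0.0617 with the replicate number as a block). Mgst1, a microsomal glutathione transferase, read 3.58, 4.25, 6.74 and 6.85 in shSep15 and 2.89, 3.03, 3.01 and 3.06 in shTR1/shSep15 arrays. The shSep15 arrays of Mgst1 fell into a low pair and a high pair, and the difference of -2.36 (adjusted p = 0.0473) did not pass with the 8 arrays alone (adjusted p = 0.0675), with the block (adjusted p = 0.0633) or without the 2 doubted shTR1 arrays (adjusted p = 0.0613). The calls of Me1 and Mgst1 each ended with 6 of the 8 single arrays left out (adjusted p up to 0.0809 and 0.152). With the 8 arrays alone, 8 genes of the list rose, against 5.78% of all genes, and 1 fell, against 4.9%. In the endoplasmic reticulum, where Sep15 resides, none of 34 genes of the calnexin cycle and protein folding passed, while 9 had an unadjusted p under 0.05, 2 of them higher and 7 lower, against 15.5% of all genes at that p in either direction. The nearest to passing were Edem3 (-0.78, adjusted p = 0.0503) and Ganab (-1.26, adjusted p = 0.0771), which trim mannose and glucose from folding glycoproteins. Ganab passed with the replicate number as a block (adjusted p = 0.0144) and with the 8 arrays alone (adjusted p = 0.00333), and the mean over its probe sets was -0.71.

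Cell cycle genes were higher in shTR1/shSep15 cells in most of their members, with few calls. Of 31 genes of G2 and mitosis, 29 differences were positive, the median was 0.75, and in 23 genes every shTR1/shSep15 array lay above every shSep15 array, against 9.5% of all genes. In the fit of all 16 arrays 2 rose (6.45%, against 1.6% of all genes) and 1 fell (3.23%, against 1.9%). In the fit of the 8 arrays alone 21 rose and 1 fell, against 5.78% and 4.9% of all genes. The mean of the list was 8.38, 8.23, 8.44 and 8.59 in shSep15 and 9.12, 8.98, 9.15 and 8.91 in shTR1/shSep15 arrays. It spread more in the reference lines, from 7.49 to 9.30 in control and from 7.70 to 9.23 in the arrays labelled shTR1. That spread enters the error of the 16-array fit and not that of the 8 arrays. The shTR1/shSep15 arrays lay within the control range.

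Cdc25c, the phosphatase that activates Cdk1 at entry into mitosis, read 6.23, 6.52, 6.32 and 6.35 in shSep15 and 7.68, 7.95, 7.52 and 7.67 in shTR1/shSep15 arrays (1.35, standard error 0.21, adjusted p = 0.0038). Kif20a, a kinesin of cytokinesis, read 7.06, 6.58, 7.13 and 7.56 against 9.01, 9.07, 9.17 and 8.95 (1.97, adjusted p = 0.03). The call of Kif20a ended with the replicate number as a block (adjusted p = 0.0698) and with any single array left out (adjusted p = 0.0529 to 0.0847). The mitotic kinases Aurkb and Plk1, chosen after their values were seen, show the more usual pattern of the list. Aurkb read 7.49, 7.34, 7.86 and 8.08 against 8.90, 9.02, 8.88 and 8.80 (1.21, adjusted p = 0.409). Plk1 read 8.35, 7.88, 8.30 and 8.54 against 9.26, 9.61, 9.24 and 9.09 (1.03, adjusted p = 0.445). Their lines did not overlap, and both passed with the 8 arrays alone (adjusted p = 0.0022 for Aurkb and 0.0047 for Plk1). Ccnb1ip1, a ring-finger protein that binds cyclin B1, went the other way, with 6.64, 6.98, 7.59 and 7.89 against 4.84, 3.87, 4.78 and 4.23 (-2.84, standard error 0.54, adjusted p = 0.0112) and a control mean of 4.51.

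Of 38 genes of DNA replication and S phase, 32 differences were positive, the median was 0.43, and 16 had every shTR1/shSep15 array above every shSep15 array, against 9.5% of all genes. E2f1, a transcription factor of S-phase genes, rose by 1.04 (adjusted p = 0.0195) and was the only one called (2.63%, against 1.6% of all genes). That call ended with any single array left out other than shSep15 replicate 3 or shTR1/shSep15 replicate 3 (adjusted p up to 0.0642). With the 8 arrays alone 9 rose, against 5.78% of all genes. The widest difference of the list was that of the thymidine kinase gene Tk1, also chosen after its values were seen, with 8.03, 6.31, 8.48 and 8.53 against 9.38, 9.75, 9.35 and 9.34 (1.62, adjusted p = 0.356). None of 21 p53 target genes passed, and 6 had an unadjusted p under 0.05, all lower, against 15.5% of all genes in either direction. Trp53inp1, which p53 induces under stress, was at 8.04 to 9.13 in shSep15 and 5.38 to 6.80 in shTR1/shSep15 arrays (-2.52, adjusted p = 0.152). It passed without control replicate 2 (adjusted p = 0.0309) and with the 8 arrays alone (adjusted p = 0.00224), where 7 of the 21 genes fell, against 4.9% of all genes. Polk, a DNA polymerase that copies past damage, did not pass (-1.15, adjusted p = 0.169). It passed with the 8 arrays alone, with array weights and without control replicate 2.

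**Figure D4:**
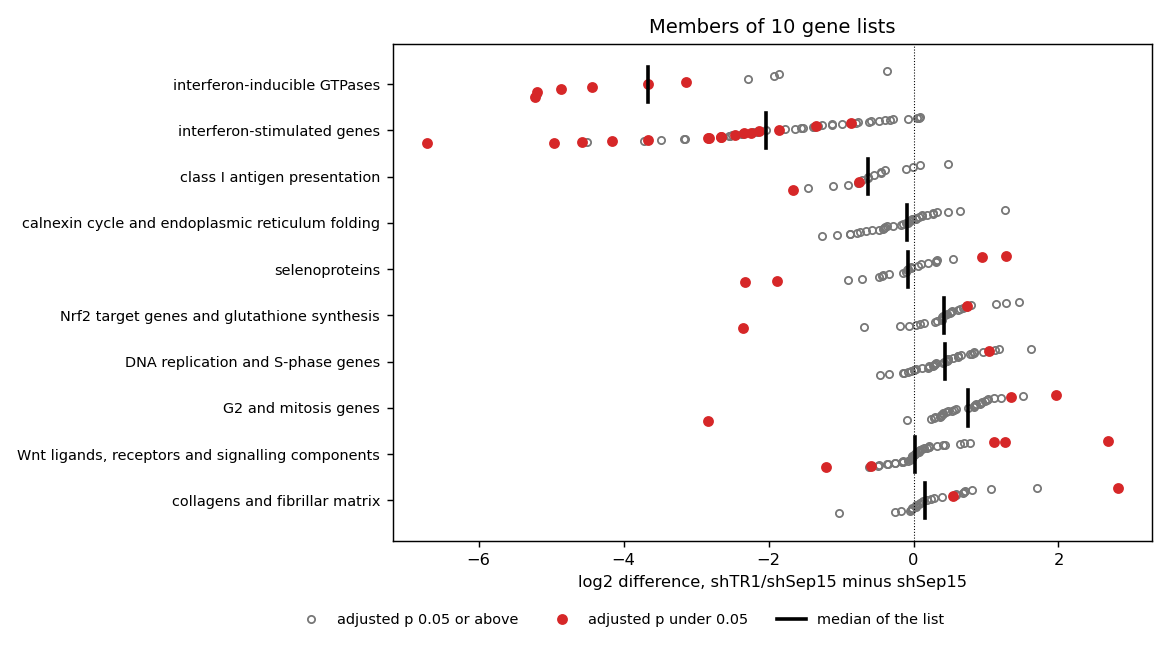
Log2 difference of every measured member of 10 gene lists. Filled red points passed an adjusted p under 0.05 over all probe sets, open points did not, and the thick bars are the list medians. The bars of the GTPases (-3.66) and interferon-stimulated genes (-2.04) lie far to the left, those of the G2 and mitosis genes (0.75) and S-phase genes (0.43) lie to the right, and the others are within 0.63 of zero.

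In the Wnt pathway, in which secreted Wnt proteins bind Frizzled receptors and stabilise beta-catenin, 3 of 48 components rose (6.25%, against 1.6% of all genes) and 2 fell (4.17%, against 1.9%), with a median of 0.02. Dkk2, a secreted modulator of Lrp co-receptors, read 4.04, 4.31, 4.06 and 3.71 in shSep15 and 6.92, 6.38, 6.87 and 6.66 in shTR1/shSep15 arrays (2.68, standard error 0.47, adjusted p = 0.00664). The receptor Fzd7 read 6.50, 5.96, 6.27 and 6.19 against 7.70, 7.0, 7.75 and 7.51 (1.26, adjusted p = 0.00409). Porcn, which attaches the lipid that Wnt proteins need for secretion, rose by 1.11 (adjusted p = 0.0184), and the receptor Fzd6 fell by 1.21 (adjusted p = 0.047). The other Fzd6 probe sets differed by -0.23 (adjusted p = 0.792) and 0.12 (adjusted p = 0.848). Bcl9, a co-activator of beta-catenin and the other gene that fell (-0.59, adjusted p = 0.046), lies on chromosome 3. The call of Bcl9 ended with the 8 arrays alone (adjusted p = 0.0636), with the block (adjusted p = 0.0513), without the 2 doubted shTR1 arrays (adjusted p = 0.0727) and with any single array but shSep15 replicate 1 or 2 left out (adjusted p up to 0.15). The calls of Porcn and Fzd6 ended with 4 and 7 of the 8 single arrays left out (adjusted p up to 0.0705 and 0.158), and that of Fzd6 also without the 2 doubted shTR1 arrays (adjusted p = 0.0733). Ctnnbip1, an inhibitor of beta-catenin, missed the threshold (0.70, adjusted p = 0.0514) and passed with the 8 arrays alone (adjusted p = 0.0138). Wnt10a (0.64, adjusted p = 0.654), Apc (-0.26, adjusted p = 0.809) and Axin1 (0.12, adjusted p = 0.787) did not pass. None of 20 Wnt target genes passed, and 1 had an unadjusted p under 0.05, Ephb3, a receptor of ephrins (0.35, adjusted p = 0.173). Vegfa, the vascular growth factor, was next (0.53, adjusted p = 0.415).

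Caspases, the proteases of apoptosis and inflammation, fell in 3 cases, and Fadd, the adaptor that links death receptors to caspases, rose. The 4 were among 30 caspase and apoptosis genes, so that 10% fell and 3.33% rose, against 1.9% and 1.6% of all genes, with a median of -0.03. Casp1, which processes interleukin 1 beta, read 6.63, 6.90, 8.25 and 8.17 in shSep15 and 5.91, 5.48, 6.07 and 6.10 in shTR1/shSep15 arrays (-1.60, adjusted p = 0.019). Casp12, a caspase of the endoplasmic reticulum, read 4.10, 4.88, 5.76 and 5.77 against 3.17, 3.85, 3.44 and 3.86 (-1.55, adjusted p = 0.0294). Casp6, an effector caspase, read 8.19, 8.43, 8.74 and 8.59 against 7.23, 7.18, 7.34 and 7.09 (-1.28, adjusted p = 0.0122). In Casp1 and Casp12, shSep15 replicates 3 and 4 were above replicates 1 and 2, while Casp6 was even. The calls of Casp1 and Casp12 ended with 4 and 6 of the 8 single arrays left out (adjusted p up to 0.073 and 0.107). Fadd rose by 0.63 (adjusted p = 0.00943).

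Of 28 hypoxia and glycolysis genes, 2 rose (7.14%, against 1.6% of all genes) and none fell, with a median of 0.37. Pfkfb4, which sets the level of the activator of phosphofructokinase, rose by 1.07 (adjusted p = 0.0165, and 0.0533 to 0.0559 without shSep15 replicate 3 or shTR1/shSep15 replicate 1 or 3). Pfkl, the liver form of phosphofructokinase, rose by 0.60 (adjusted p = 0.0449), but not with the 8 arrays alone (adjusted p = 0.0515), with the replicate number as a block (adjusted p = 0.0919) or without the 2 doubted shTR1 arrays (adjusted p = 0.0625). Speg, which the study followed, did not pass (-0.09, adjusted p = 0.972). None of 8 common gamma chain receptor genes passed in either direction, with Il4ra at 0.52 (adjusted p = 0.36) and Il2ra at 0.20 (adjusted p = 0.508). In the remaining lists, no member fell other than Txnrd1, and those that rose have been named. They were Sephs2 of 11 genes of selenocysteine synthesis (9.09%, against 1.6% of all genes) and Igfbp4 of 15 of the insulin-like growth factor system (6.67%). Btc of 15 of the EGF family (6.67%) and Ccr1 of 30 chemokines and receptors (3.33%) rose as well. So did Nefl and Nefm of 11 neurofilament and related genes (18.2%), and Zeb1 and Twist2 of 24 mesenchymal and actin genes (8.33%). As these lists were chosen with earlier results of these data known, the shares are not independent evidence. Txnrd1 was the only gene called of 24 in the thioredoxin, peroxiredoxin and glutaredoxin system (4.17% lower, against 1.9% of all genes).

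The calls were not spread evenly over the chromosomes. Of 913 measured genes on chromosome 3, where Selenof lies, 122 fell (13.4%, against 1.9% of all genes) and 3 rose, Sox2, Dkk2 and Pdgfc, a platelet-derived growth factor (1.56). In order along chromosome 3 by GRCm38.p6, the 5 equal parts held 6, 20, 21, 35 and 40 genes that fell, and the median difference was -0.01 in the first and -0.24 and -0.17 in the last 2. In those same parts the medians of shSep15 minus control were 0.00, 0.10 and 0.17 and those of shTR1/shSep15 minus control -0.01, -0.01 and 0.02. On chromosome 18, 29 of 459 genes rose (6.32%, against 1.6% of all genes) and 1 fell, the transcription factor gene Crem (-0.86), and 14 of the 29 lay in the second of 5 parts by order. The 29 include Cd14, Sting1, Kif20a, Cdc25c and Zeb1. The call of Crem ended with the block (adjusted p = 0.0812) and with any single array but shSep15 replicate 1 left out (adjusted p up to 0.152). On chromosome X, 37 of 617 genes rose (6.0%) and 13 fell (2.11%, against 1.9% of all genes), and 23 of the 37 lay in the first of 5 parts. Of the genes described above that fell, Gbp2b, Gbp7, Gbp2, Ctso, Fpgt, Casp6 and Bcl9 are on chromosome 3. Among the 17280 genes elsewhere, 288 rose (1.67%) and 224 fell (1.3%). The arrays do not report DNA copy number, and the part of gene dose in these differences was not tested.

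**Figure D5:**
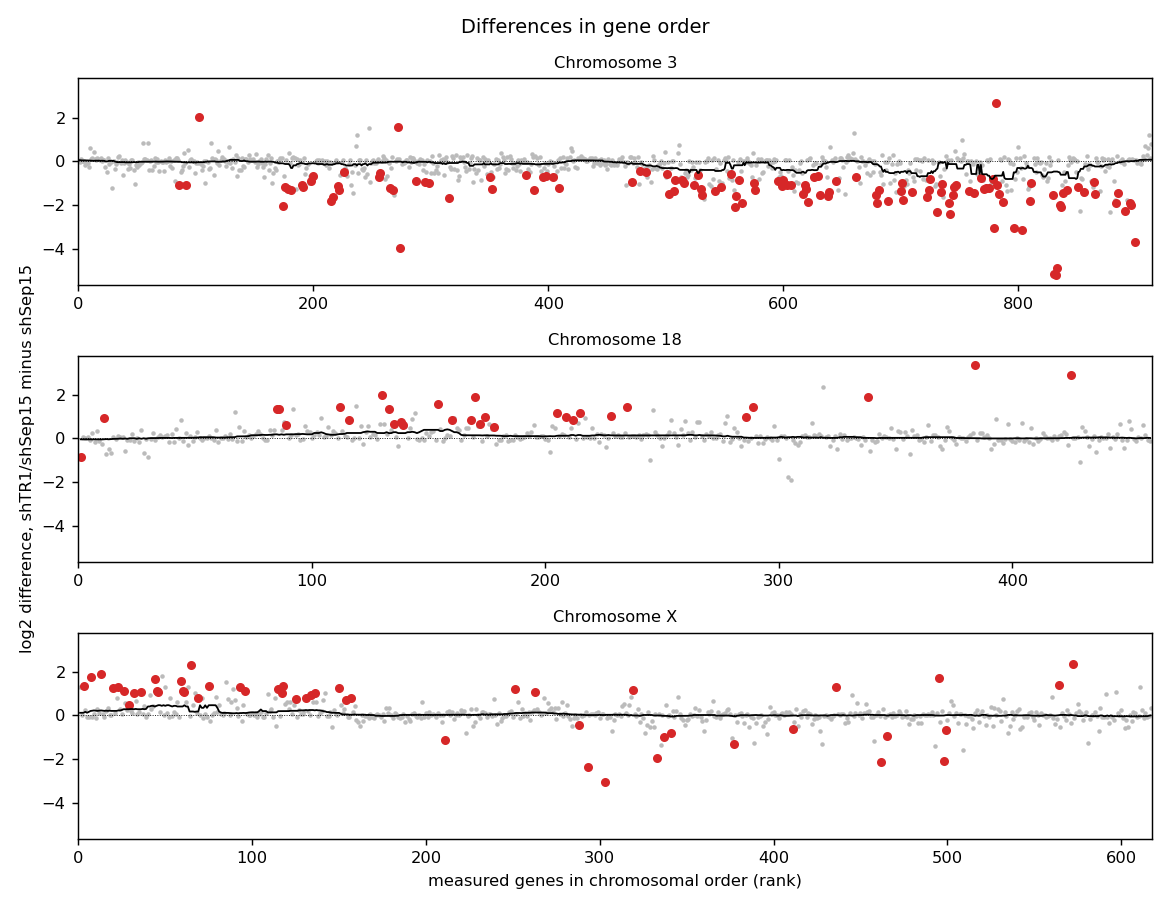
Log2 difference of each measured gene on chromosomes 3, 18 and X, in chromosomal order. Red points passed an adjusted p under 0.05, grey points did not, and the line is the running median over 41 genes. Red points on chromosome 3 are nearly all below zero and denser in the later parts, while on chromosome 18 and at the start of X they are nearly all above zero.

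The same question was put where Sep15 is not low, by setting the difference between the lines against that between the arrays labelled shTR1 and control. These differences were unequal for 1282 of 45037 probe sets (2.85%) and for 692 of 18193 genes (3.8%). Sep15 and other differences between the 4 lines cannot be told apart in this test. Without the 2 arrays labelled shTR1 whose Txnrd1 was at the control level, 519 probe sets passed, and without control replicate 2 there were 2340. Txnrd1 itself did not pass (-1.36, adjusted p = 0.357). Its value was -0.22 without those arrays labelled shTR1 (adjusted p = 0.864) and -1.19 without control replicate 2 (adjusted p = 0.401). Arhgef5 had the lowest p of the named genes. Its difference of 4.90 between the lines was 9.60 above that between the arrays labelled shTR1 and control (adjusted p = 1.19e-11, and 4.89e-09 without the doubted arrays labelled shTR1). Against control, 495 genes passed in shSep15 cells (2.72%), 50 in the arrays labelled shTR1 (0.275%) and 7 in shTR1/shSep15 cells (0.0385%). Without the 2 doubted arrays labelled shTR1 these counts were 508, 11 and 15, and without control replicate 2 they were 688, 62 and 13. These comparisons share the control arrays.

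Few markers of other cells were called. Of 19 leukocyte markers, 1 rose (5.26%, against 1.6% of all genes) and none fell. The gene that rose was Cd14, a receptor of bacterial lipopolysaccharide (1.87, adjusted p = 0.00212). It read 7.27, 6.57, 7.67 and 7.70 in shSep15 and 9.30, 9.11, 9.28 and 9.01 in shTR1/shSep15 arrays. The list mean was 4.49 to 4.75 in shSep15 and 4.72 to 5.11 in shTR1/shSep15 arrays, and the defining markers Ptprc (2.73 and 2.85) and Itgam (3.68 and 3.61) were near the bottom of the scale in both lines. Of the 19, 8 lay above the mean of all probe sets, among them Laptm5 (8.49 and 8.89). With the 8 arrays alone 3 rose, against 5.78% of all genes, and these were Cd14, Cd68 (5.14 and 6.84) and Coro1a (3.27 and 3.94). None of 12 endothelial markers passed, Eng (0.49, adjusted p = 0.153) and Esam (0.25, adjusted p = 0.38) being nearest, with list means of 4.24 to 4.37 and 4.32 to 4.59 and Pecam1 at 3.08 and 3.19. None of 6 mesenchymal markers passed, although Pdgfrb read 4.34 in shSep15 and 6.69 in shTR1/shSep15 cells, and Fap 4.6 and 3.27. Of the 5 epithelial markers only Krt18 passed, and their mean was 3.92 to 4.26 in shSep15 and 4.70 to 5.02 in shTR1/shSep15 arrays. In bulk mRNA, fewer cells of a kind and less RNA per cell cannot be told apart.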

How the data were processed

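CT26 cells of 4 lines were measured on 16 arrays, 4 for each line, and 8 arrays are compared here. The authors converted the arrays to expression values with Robust Multi-Array Analysis (RMA, version not given in the sources used here) and deposited a log2 signal for every probe set, already corrected for background and normalized, which was used unchanged. The arrays give no depth, and their number limits the precision. Of 45101 probe sets, 64 control probe sets were left out. Of the 45037 tested, 34945 carry 1 gene symbol in the platform annotation, 932 several and 9160 none, and 34741 symbols were updated by gene number. A gene is the probe set with its symbol alone and the highest mean over 16 arrays, which gave 18193 genes. Of 34 genes that the study followed or named, 6 have no such probe set and are not reported here.

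All 16 arrays entered a linear model in limma 3.58.1 under R 4.3.3, with the 4 lines as group means and empirical Bayes moderation (12 residual and 2.58 prior degrees of freedom). Differences are shTR1/shSep15 minus shSep15, with Benjamini-Hochberg adjustment over all probe sets tested and a threshold of adjusted p under 0.05. Every adjusted p in the text is from this fit unless another is named. A 2-sided exact permutation test was run on the target genes with scipy 1.17.1. A run on simulated data with independent noise in each array checked the working of the fit, not its error rate in these arrays. Named genes are Selenof and Txnrd1, the 12 genes furthest in each direction among those past the threshold whose arrays do not overlap, up to 4 called members of each of 30 gene lists (or the 2 with the lowest p where none was called), and genes that the study named. Aurkb, Plk1, Tk1, Bcl9, Pdgfc and Crem were added after their values were seen. The members and lists were chosen with earlier results of these data known. Promoters and gene order are from RefSeq (GRCm38.p6). The build behind the deposited annotation is not given in the sources used here.

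Deviations of same-numbered arrays of the 2 lines correlated at r = 0.105, 0.466, 0.147 and 0.335 for numbers 1 to 4. Numbers 1 and 2 had their own number as the closest partner. The closest partner of shSep15 replicate 3 was shTR1/shSep15 replicate 4, and that of replicate 4 was replicate 3. An alternative fit therefore took the repeat number in the titles as a block over all 16 arrays. Other alternatives were the 8 arrays alone, 12 arrays without those labelled shTR1, an intensity trend, robust moderation, median centring, quantile normalization, the brighter part of the probe sets, array weights, the methods' analysis of variance, a 2-fold criterion, the mean over a gene's probe sets and each array left out. Leaving out replicate 2 of both lines, shTR1 replicates 2 and 4, or control replicate 2 was chosen after seeing the data. Figures were drawn with matplotlib 3.10.9.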

Additional observations from a re-analysis of the deposited data

Results flagged for a closer look

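Among the 92 genes named here, each with 4 arrays in either line, a single array stood apart from the others in 22 of 184 groups, where its gap to the nearest neighbour, as a share of the range of the 4 arrays, exceeded the critical value of Dixon's test. Chance alone gives about 1 such group in 20. In 11 of the 22 the array was shSep15 replicate 1, which was low in 8 genes that interferons induce: Usp18 (7.84), Gbp7 (6.29), Xaf1 (8.69), Phf11d (8.68), Irgm2 (6.29), Trim30a (7.46), Gbp6 (3.32) and Nmi (7.83). It also stood apart in Nefm (5.02), Axin1 (7.41) and Pfkl (6.41). In shSep15 replicate 2 the genes were Afp (2.71), Col3a1 (5.17), Trp53inp1 (8.04) and Polk (7.15), and in shSep15 replicate 4 Pfkfb4 (5.88). In shTR1/shSep15 replicate 2 they were Igtp (5.28), Gbp6 (2.51), Dppa4 (7.65), Ccr1 (6.16), Spint2 (6.17) and Tk1 (9.75). Results without these arrays are given with the genes or below.

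For 38 of the 92 named genes, the log2 difference between shTR1/shSep15 and shSep15 cells was unequal to that between the arrays labelled shTR1 and control, by a test of the difference of differences in limma at an adjusted p under 0.05. Over all genes the share was 3.8%. Many named genes were picked for a large difference between the lines, which is part of this test, so the 38 cannot be set against that share. Most of the interferon genes had negative values, with -10.7 for Usp18, -7.32 for Gbp7, -7.17 for Xaf1, -6.73 for Gbp2, -6.72 for Irgm2, -6.19 for Phf11d, -5.52 for Igtp, -5.1 for Parp14, -4.46 for Trim30a and -2.65 for Nmi. In antigen presentation the value was -2.36 for Tapbp and -1.35 for H2-D1. It was 2.5 for Sting1 and 4.68 for Ifitm1. Genes that were high in control and shTR1/shSep15 cells had positive values, with 9.6 for Arhgef5, 7.95 for Afp, 5.93 for 2210016F16Rik, 5.17 for Nefl, 4.99 for Klf2, 4.98 for Col3a1, 4.76 for Dppa4, 4.43 for Nefm, 4.17 for Igfbp4 and 3.94 for Krt20. Other positive values were 2.17 for Cd14, 2.14 for Cdc25c, 1.91 for Sephs2, 1.49 for Fzd7 and 0.7 for Fadd. Other negative values were -4.66 for Fpgt, -4.33 for Ccnb1ip1, -3.91 for Ctso, -2.15 for Ganab, -1.95 for Selenop, -1.92 for Crem, -1.52 for Casp6, -1.1 for Edem3 and -0.82 for Bcl9.

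In 25 of the 38 the test also passed without the 2 arrays labelled shTR1 whose Txnrd1 was at the control level, and in 36 without control replicate 2. Those that no longer passed without the 2 arrays labelled shTR1 were Gbp7, Gbp2, Parp14, Igtp, Nmi, Tapbp, Nefl, Nefm, Sephs2, Edem3, Fzd7, Casp6 and Bcl9 (adjusted p = 0.0505 to 0.169), and without control replicate 2 they were Edem3 (adjusted p = 0.0562) and Bcl9 (adjusted p = 0.0535).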

How the results depend on the processing

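The count of probe sets that differed between the lines (1196) moved with the setting, and the cause was not tested. It was 3747 with the 8 arrays alone, 5525 with array weights, 738 with the methods' analysis of variance after adjustment and 5665 before it, and 697 where the difference also had to reach 2-fold. It lay between 974 and 1421 with 12 arrays, an intensity trend, robust moderation, median centring, quantile normalization or the brighter probe sets. Single arrays left out gave 613 to 1019, with all but shSep15 replicates 1 and 2 moving the count by over 1.5 times. Among settings chosen after seeing the data, leaving out replicate 2 of both lines gave 516 and leaving out control replicate 2 gave 2239. The replicate number as a block gave 977, of which 890 were shared, and it changed no call of a named gene other than those given above.

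The count of probe sets that passed the test of the difference of differences was 1282. It was 4462 with array weights, 744 with the methods' analysis of variance, 519 without shTR1 replicates 2 and 4, and 2340 without control replicate 2. With the block it was 1130, and with single arrays left out 656 to 1530. The test could not be fitted with 8 or 12 arrays.

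Selenof (-0.47) passed with the 8 arrays alone (-0.47, adjusted p = 0.0494) and with array weights (-0.43, adjusted p = 0.0308), and the mean of its probe sets was -0.24. Txnrd1 (-2.32) did not pass with the methods' analysis of variance (-2.32, adjusted p = 0.0575) or without replicate 2 of both lines (-1.94, adjusted p = 0.171), ranged from -2.44 to -2.08 with single arrays left out, and had a mean over its probe sets of -1.11. With the mean over a gene's probe sets, the differences of 20 other named genes moved, those of 30 counted as the same, and the sign turned for Axin1 (-0.18). As examples, another probe set differed by 0.17 for Fzd7, -0.15 for Mgst1 and -2.87 for Spint2, against 1.26, -2.36 and -0.95 above. Signs also turned with single arrays left out for Gpx2 (-0.16 to 0.04) and Speg (-0.24 to 0.04). Neither these 2 genes nor Axin1 passed. Of 66 named genes past the threshold, 36 passed with any single array left out. Besides Txnrd1, 40 lost their call without replicate 2 of both lines. The number of arrays limits the precision.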
